A study of Oncorhynchus mykiss with 28 samples.

Results

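The transcripts described here are the 150 cDNA clones whose egg mRNA abundance differed most between individual rainbow trout females of the same experimental group. They were chosen among 9023 clone rows of the array. A clone had to give a signal above 0 on all 28 arrays (7915 clones) and to be absent from the lists of genes that the study itself selected, which left 7865 clones. The log2 signals were quantile normalized, the mean of the female's group was subtracted, and the 150 clones of largest SD of these residuals were kept among the 3663 clones with a mean log2 signal above 0, that is above the median clone. Because the spread between females chose these clones, their spread is given below as a description with no test.

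A fish egg is loaded with maternal mRNAs during oogenesis, and the early embryo depends on this store until its own genome is transcribed. Egg quality, the capacity of an egg to give a normal alevin after fertilization, can differ widely between females of the same stock. The content of an ovulated egg reflects both the transcripts laid down in the ovary and those that persist after ovulation.

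For each array, several RNA extracts of unfertilized eggs from 1 female of an autumn-spawning strain, stripped some days after detected ovulation, were pooled. The 4 females of the N group ovulated naturally, the 10 of the HI group after injection of a GnRH analog, and the 14 of the PM group, which had already reproduced once, under an artificial photoperiod. Percentages of normal alevins at yolk-sac resorption ran from 95.9 to 98.8% in the N group, from 2 to 95.4% in the HI group and from 0 to 93.8% in the PM group. All HI eggs were of 2004 and all N and PM eggs of 2003, so the year and the hormonal treatment cannot be told apart, and no difference between years is left within a group. Females are numbered within their group in the order of the percentage of normal alevins, and N 1 and PM 4 bear the same female number in the sample labels. Every array gave 8146 to 8655 clone values above 0. Each sample was measured on 1 array, so differences between females cannot be told apart from differences between arrays. The files used here do not pair clones with genes, so no clone of the 150 has a gene name or a function here, and tissue markers could not be looked at.

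The 150 clones had residual SDs of 0.40 to 0.93 on the log2 scale (median 0.45), while the median of the 3663 clones was 0.21. In linear signal, the female with the highest level exceeded the female with the lowest by a median of 3.81-fold over the 150 clones, with a range of 2.57-fold to 45.3-fold. The median over the 3663 clones was 1.83-fold. The last clone kept, tcah0001.p.03, had an SD of 0.3953 and ran from -0.16 to 1.29 in log2 signal, and the first clone left out, tcbk0013.f.22, had an SD of 0.3946 and ran from 0.14 to 1.56. There was thus no break in spread at the limit. The members covered nearly the whole range of signal, with mean log2 signals from 0.003 to 5.93.

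**Figure D1:**
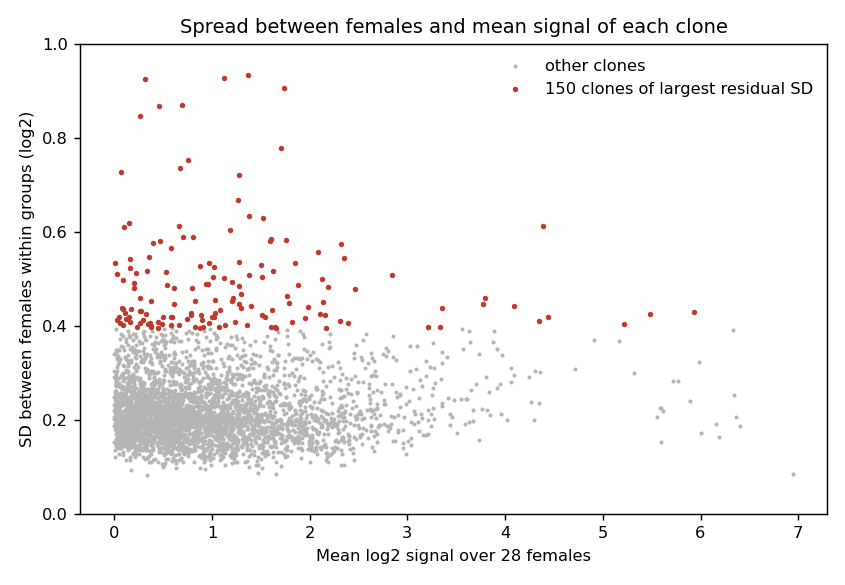
SD of the residuals between females of a group (vertical axis, log2) against the mean log2 signal over 28 females (horizontal axis), 1 point per clone. The 150 clones kept lie above 0.3953 at all levels of signal, and the median of all 3663 clones is 0.21.

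A large spread was present in each of the groups. The median SD of the 150 clones was 0.44 among N females, 0.43 among HI females and 0.49 among PM females, where the 3663 clones had medians of 0.20, 0.21 and 0.20. For 128 of the 150 clones the SD exceeded that median in all 3 groups. Ranked by SD within each group, 55 clones were among the 150 of largest SD both in the HI and in the PM group. SDs from so few females are imprecise, which alone makes such lists differ. Whether the ranking of clones depended on the group was not tested. All 55 were among the 150 clones described here. As the clones were chosen by their SD over all groups, this overlap and the larger SDs follow in large part from the choice.

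The variation was carried by many females and not by a few arrays. Each female's share of the summed squared residuals of the 150 clones lay between 2.07 and 6.19%, where an even share is 3.57%, and 12 females were needed to reach 50%. HI 1, with 2% normal alevins, had the highest share (6.19%), and PM 9, with 43.9%, the next (5.50%). HI 5, with 39.8%, had the lowest (2.07%), followed by PM 10 with 71.5% (2.21%). A female's mean squared residual in the 150 clones tended to be lower with a higher percentage of normal alevins (Pearson's r = -0.44, Spearman's rho = -0.31, 28 females), where the other clones of the same arrays gave r = 0.13. Within the HI group r was -0.56 (10 females) and 0.02 once the 2 females farthest from the median were left out, and within the PM group r was -0.40 (14 females) and -0.32 without such females. In the other clones r was -0.44 within the HI group and 0.67 within the PM group. As these residuals chose the clones, no test was made. Per residual degree of freedom, the share was 4.68% in the N, 3.71% in the HI and 4.04% in the PM group.

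**Figure D2:**
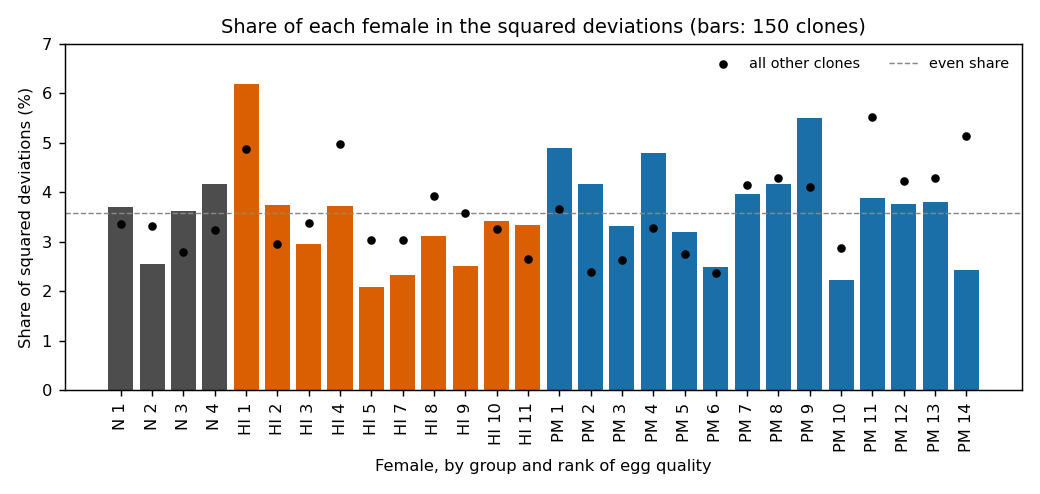
Share of each female in the summed squared residuals (vertical axis, %), bars for the 150 clones and black points for the other clones, with females along the horizontal axis in the order of egg quality within N, HI and PM. Bars run from 2.07 to 6.19%, around an even share of 3.57% (broken line).

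Some females had unlike shares in these clones and in the other clones of the array. The share in the 150 clones was the larger in 14 of the 28 females. Both kinds of share have the same total, so this count says little. Mean squared residuals in the 150 clones were 2.41 (PM 14) to 8.96 (PM 2) times those of the other clones on the same array. That they were larger follows from the choice of the clones. PM 2 gave 4.17% of the squared residuals of the 150 clones and 2.38% of those of the others, and PM 14 gave 2.43 and 5.14%. By residual, every female was the most extreme of the 28 in at least 1 clone. PM 9 was so in 15 of them. It had the lowest residual of all females in 24 clones, whereas N 1 had the highest residual in 19.

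Profiles of different females over the 150 clones were weakly related. Of 378 pairs of females, the most alike were HI 2 and PM 2 (r = 0.54), N 3 and HI 10 (r = 0.53) and PM 11 and PM 12 (r = 0.43), and the most unlike were N 1 and N 4 (r = -0.59). Over the other clones of the same arrays, r in these pairs was 0.21, 0.42, 0.44 and -0.51, in that order. These correlations are over clones of arrays that share the subtraction of group means. That subtraction lowers r between females of 1 group, most in the N group of 4 females. N 1 and PM 4, the pair with a common female number, had r = -0.49, rank 375 of the 378, and r = -0.41 over the other clones. Whether the 2 samples come from 1 fish was not tested.

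In 13 of the 150 clones, 1 female alone held more than 50% of the squared residuals (8.67%), which was the case in 0.874% of the 3663 clones. A single extreme female raises the SD that chose the clones, so the larger share follows in part from the choice. The 13 clones were named after their values were seen. They pointed to 10 different females, 3 of them with 2 clones each, and the female stood above the others in 10 clones and below them in 3. Clone tcay0028.p.24, rank 2 by spread, was the extreme case. Its log2 signals in the N group were 0.95, 0.98, 0.43 and 5.93 in N 1 to N 4, HI females ran from 0.52 to 1.47 (median 1.02) and PM females from 0.69 to 1.41 (median 0.90). N 4 alone was high, and the other 27 females fell within 0.43 to 1.47. The same female was apart for tcba0012.m.14 (r = 0.86 with the former over residuals), with 2.08 against -0.06 to 0.69 in the others.

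Other clones had a single high or low female in the PM and HI groups. For 1RT123J20_D_E10 it was PM 4, at 2.70, with the next female at 0.78. Clone tcag0003.c.15 was highest in PM 2, at 3.26 against 1.60 in the next female. Clone tcbk0011.g.18 stood at 2.33 in HI 1 and at most at 0.45 elsewhere. In PM 8 the levels of tcav0003.f.14 (-2.17, next lowest female -0.61) and of 1RT107F11_B_C06 (-0.76, next lowest 0.76) were low.

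Clones that divide the females into a lower and an upper class were also more frequent than among all clones. A step of over 20% of a clone's whole range, with at least 3 females on either side, occurred in 16 of the 150 clones (10.7%) and in 122 of the 3663 (3.33%). As the members were chosen for wide ranges, these shares are descriptions.

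The clone of largest spread, tcba0012.f.15 (SD 0.93), was low in 4 females of all 3 groups. Its log2 signals in the N group were 1.76, 1.30, -0.62 and 1.44, in the HI group they ran from -0.60 to 2.18 (median 1.38) and in the PM group from -0.60 to 2.37 (median 1.96). N 3, HI 4, HI 10 and PM 4 lay between -0.62 and -0.43, and the other 24 females between 0.72 and 2.37. The 4 low females had percentages of normal alevins of 97.9, 35.6, 92.7 and 5%.

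The same 4 females were the lowest for 2 other clones of other libraries and plates. Clone tcbk0042.a.18 was at 2.64, 1.73, -0.40 and 1.86 in N 1 to N 4, from -0.24 to 2.47 (median 1.91) in the HI group and from 0.01 to 2.83 (median 2.28) in the PM group. Its 4 low females lay between -0.40 and 0.38, below the other 24 (0.84 to 2.83). For 1RT55B06_D_A03, named after its values were seen, they lay between -0.98 and -0.49, and the others between -0.22 and 1.55. Residuals of the 3 clones correlated at r = 0.96 to 0.97 over the 28 females. The same 4 females were thus the lowest on 3 separate spots of the array, but the gap above them was less sharp in the 2 other clones. The largest step was 38.5% of the range for tcba0012.f.15 and 14.1% for tcbk0042.a.18, both above these 4 females. For 1RT55B06_D_A03 it was 12.8% and left 5 females below, PM 1 among them. Whether the 3 clones hold the same transcript was not tested.

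Clone tcay0039.p.19 (SD 0.87) had its highest levels in PM 1 (2.56) and PM 6 (2.64). The N females were at 0.42, 0.02, -0.03 and -0.39, the HI females ran from -0.12 to 1.89 (median 0.85) and the PM females from -0.45 to 2.64 (median 0.37). N females were thus confined to the lower part of the range, where HI and PM females were also found. Clone tcbk0044.j.15 (SD 0.78) showed 0.67, 0.95, 0.87 and 2.30 in the N group, 0.55 to 2.38 (median 1.95) in the HI group and 0.60 to 3.02 (median 2.18) in the PM group. Neither of these clones had a partner of r over 0.8 among the members. Clone tcay0027.g.01, rank 9 and named after its values were seen, had 9 females from 1.34 to 1.99 and 19 from -0.23 to 0.69, with females of all 3 groups in both classes.

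**Figure D3:**
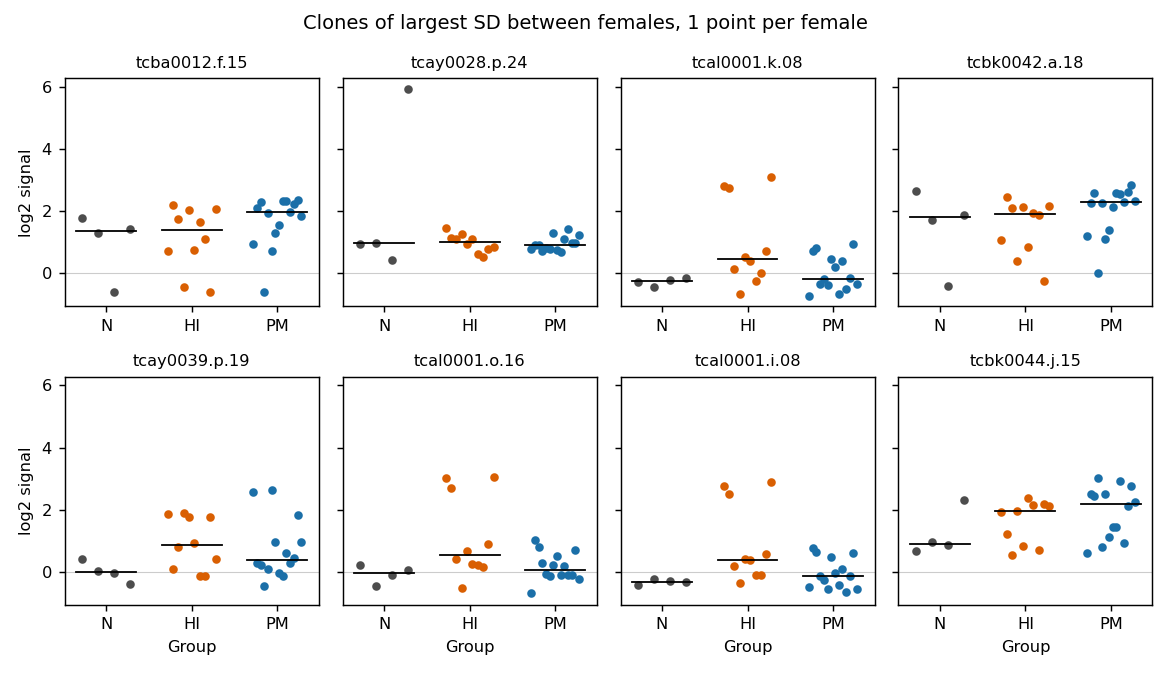
Log2 signal (vertical axis) of the 8 clones of largest SD, 1 point per female in the N, HI and PM groups (horizontal axis), lines at the group medians. N 4 stands alone at 5.93 for tcay0028.p.24, 3 HI females at 2.51 to 3.09 for the tcal0001 clones, and 4 females below 0.39 for tcba0012.f.15 and tcbk0042.a.18.

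Members followed several separate patterns. The median correlation between the residuals of 2 members was 0.01, and the first principal component held 14.3% of their variance, where it held 14.0% in the 3663 clones. Close pairs were present, however. Of 11175 pairs, 89 had r over 0.8 (0.796%) and 39 had r over 0.9 (0.349%). Among the 150 clones next in spread these shares were 0.617 and 0.0805%, and over all pairs of the 3663 clones they were 0.0265 and 0.00173%. At r over 0.7 the order was the other way, with 143 pairs of members (1.28%) against 1.61% in the next 150 clones and 0.212% of all pairs. A partner of r over 0.8 was found for 71 members, and for 52 of the next 150 clones.

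Of the 89 pairs over 0.8, 10 (11.2%) were of a common source plate, as read from the clone identifier, and 79 of different plates. Pairs of a common plate were 58 of the 11175 pairs (0.519%) and had a median r of 0.12, where other pairs had 0.01. Members came from 106 source plates, with at most 4 on 1 plate. By library, 55 of 1668 clones of the 1RT series were members (3.30%), 25 of 540 of tcay (4.63%) and 20 of 447 of tcbk (4.47%). In libraries of few clones the share varied widely, with 9 of 45 tcav clones (20%), 3 of 4 tcal clones (75%), 2 of 9 tcag clones (22.2%), 1 of 5 tcah clones (20%), 1 of 3 tcaj clones (33.3%) and 0 of 4 tcai clones. Position on the membrane was not analysed here.

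When the residuals were clustered (average linkage, divided at r = 0.5), 6 sets of at least 5 clones held 56 members, 24 groups of 2 to 4 clones held 59, and 35 clones stayed alone. The sets, named A to F by size, were made from the values they describe and carry no test.

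**Figure D4:**
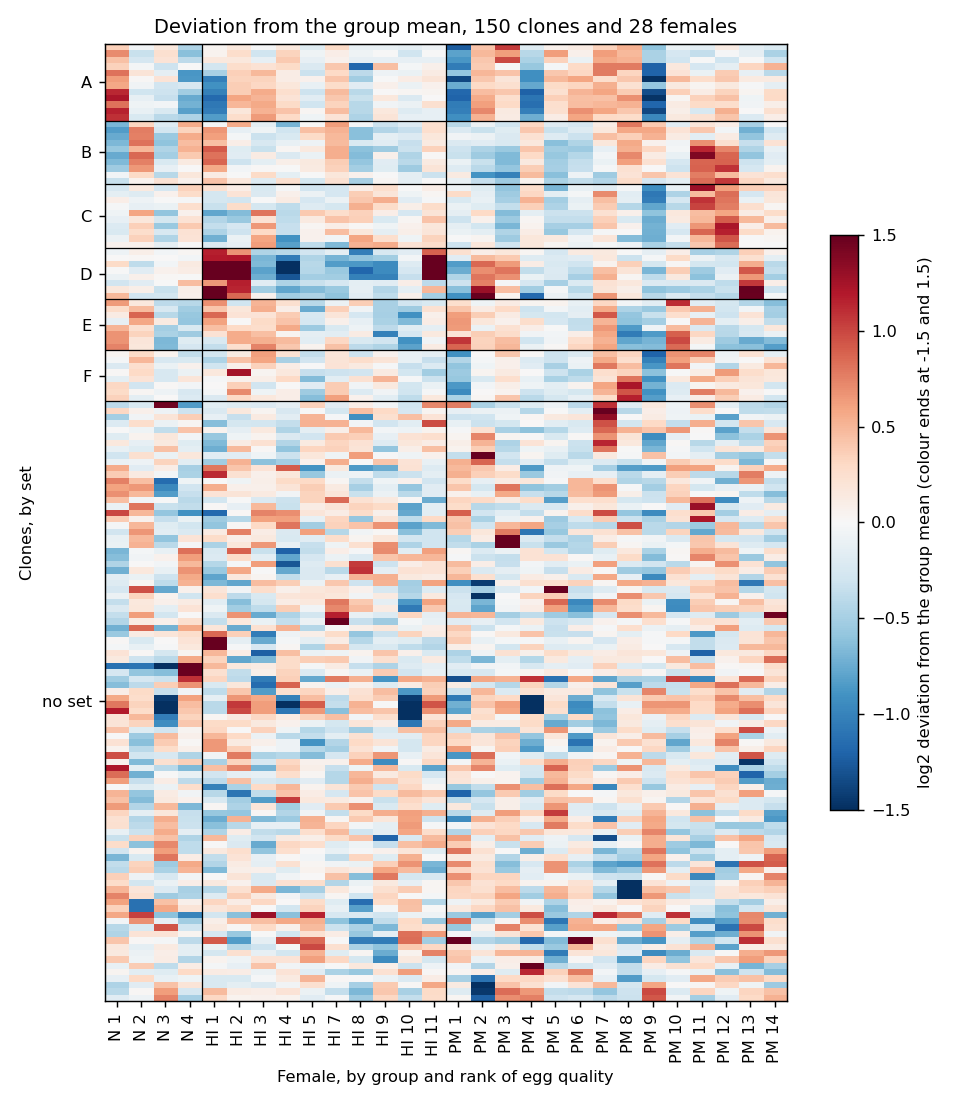
Residuals (colour, log2 deviation from the group mean) of the 150 clones in rows, by set, and of the 28 females in columns, in the order of egg quality within N, HI and PM. Dark blocks show the low females of set A (PM 1, PM 4, PM 9), the high females of set D (HI 1, HI 2, HI 11) and of set C (PM 11, PM 12).

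Set A (12 clones, median pairwise r = 0.76) was marked by females with low levels. Its mean deviation was -1.03 in PM 9, -1.003 in PM 1, -0.79 in PM 4, -0.63 in HI 1 and -0.56 in N 4, and it was highest in N 1 (0.78). PM 9 and PM 1 gave 16.6 and 14.6% of the set's squared residuals. Clone tcay0017.f.08, the closest to the set mean (r = 0.97), was at 1.15, 0.28, 0.29 and -0.38 in the N females, from -0.20 to 1.44 (median 0.97) in the HI females and from -0.30 to 1.50 (median 1.15) in the PM females. Its 5 low females (N 4, HI 1, PM 1, PM 4 and PM 9) lay between -0.38 and -0.16, and the other 23 between 0.28 and 1.50. The set held abundant transcripts as well, with mean log2 signals up to 5.93. One of these, tcay0038.i.18, was at 2.94 to 3.50 in the same 5 females and at 3.98 to 5.02 in the others. It was named after its values were seen.

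Set F (8 clones, median pairwise r = 0.60) shared the low females PM 9 (-0.88) and PM 1 (-0.67), and had its highest mean in PM 8 (0.69). Means of sets A and F correlated at r = 0.68 over the 28 females, the closest of the 15 pairs of sets. Clone 1RT116P04_D_H02 was at 1.25, 0.99, 0.88 and 0.73 in the N females, from 0.62 to 1.86 (median 1.11) in the HI females and from 0.01 to 1.91 (median 0.97) in the PM females. PM 1 and PM 9 lay at 0.01 and 0.06, apart from the other 26 females (0.62 to 1.91).

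Set D (8 clones, median pairwise r = 0.79) had high levels in 3 HI females. Its mean deviation was 1.48 in HI 1, 1.25 in HI 2 and 1.03 in HI 11, and the lowest was -0.96 in HI 4. HI 1, HI 2 and HI 11 had 2, 19.7 and 95.4% normal alevins. Clone tcal0001.k.08 was at -0.27, -0.43, -0.21 and -0.16 in the N females, from -0.66 to 3.09 (median 0.46) in the HI females and from -0.73 to 0.95 (median -0.17) in the PM females. The 3 high HI females lay at 2.73 to 3.09 and the other 25 females at -0.73 to 0.95.

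The same 3 females were apart for tcal0001.o.16 and tcal0001.i.08, which like tcal0001.k.08 come from 1 source plate (r = 0.96 to 0.98 among the 3 clones). Clone tcal0001.o.16 was at 0.22, -0.45, -0.11 and 0.07 in the N females, and at 2.70 to 3.05 in the 3 high HI females against -0.68 to 1.02 in the other 25. Clone tcal0001.i.08 was at -0.41, -0.24, -0.30 and -0.33 in the N females, at 2.51 to 2.89 in the 3 high HI females and at -0.66 to 0.76 in the other 25. They were also apart for tcad0009.a.22, of another library (1.70 to 2.16 against -0.53 to 0.47). Part of the set followed a slightly different division. For 1RT151F02_D_C01 and 1RT152B03_B_A02 (r = 0.88), the 4 highest females were HI 1, HI 2, PM 2 and PM 13. They lay at 1.33 to 1.99 for the first, against -0.98 to 0.90 in the others, and at 2.58 to 3.37 for the second, against 0.04 to 1.87. These 3 clones were named after their values were seen.

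Set B (10 clones, median pairwise r = 0.70) was high in PM 11 (0.70), N 2 (0.58), PM 12 (0.55) and HI 1 (0.54), and low in N 1 (-0.58) and PM 3 (-0.49). Clone tcav0001.k.22 was at 0.89, 2.52, 1.14 and 2.05 in the N females, from 1.23 to 2.70 (median 1.85) in the HI females and from 0.74 to 2.80 (median 1.26) in the PM females. Set C (10 clones, median pairwise r = 0.66) was high in PM 12 (0.87) and PM 11 (0.72) and low in PM 9 (-0.78) and PM 3 (-0.51). Its closest clone, tcac0002.m.22, was at 0.98, 1.47, 0.98 and 1.43 in the N females, from 1.13 to 2.06 (median 1.67) in the HI females and from 0.82 to 2.71 (median 1.48) in the PM females. PM 11 and PM 12, at 2.41 and 2.71, lay above the other 26 females (0.82 to 2.06).

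Set E (8 clones, median pairwise r = 0.65) had no single outstanding female. Its mean was highest in PM 10 (0.62), PM 1 (0.59) and PM 7 (0.58) and lowest in PM 8 (-0.62), HI 10 (-0.57) and HI 9 (-0.51). Clone tcad0004.j.06 was at 2.66, 2.17, 1.31 and 1.80 in the N females, from 1.55 to 3.02 (median 2.36) in the HI females and from 1.53 to 3.38 (median 2.34) in the PM females. Sets extended beyond the 150 clones. Among the other clones above 0 on all arrays, 13 (set D) to 59 (set E) had r over 0.7 with the set mean. The clones searched included those of the study's lists and those of low mean signal. Of the 50 clones selected by the study that were measured on all arrays, tcbk0049.m.03 (OSBPL5) and 1RT139F11_B_C06 (the ribosomal protein RPL24) followed set E at r = 0.86 and 0.82, and tcac0001.c.18 followed set C at r = 0.75. None of the 50 reached 0.7 with the other 4 sets. In the study, PCR and array data of tcac0001.c.18, which resembles a hypothetical yeast protein, did not correlate. The clones of the study's lists were looked for after the sets were known, and the study chose them on the same samples.

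To see whether the variation followed egg quality, log2 signal was regressed on the percentage of normal alevins within groups, for all 7865 clones. None of the 150 clones had an adjusted p under 0.05 (limma, lowest adjusted p = 0.667), as was true of all clones (0% called). At an unadjusted p under 0.05 there were 19 members, 11 with a positive and 8 with a negative slope, and 5.65% of all clones (2.96% positive and 2.68% negative). Sets C and E held 13 of the 19. With 1 array left out at a time, the members ran from 14 without PM 12 (3.93% of all clones) to 27 without PM 10 (7.12%). The clones of a set vary together and so count as few independent observations. With the variance of each clone alone, which limma's moderation lowers in clones of wide spread, 15 members and 5.47% of all clones passed the unadjusted limit. Egg quality took up a median of 3.12% of the squared residuals of the members and 2.08% of those of the 3663 clones. A measure unrelated to the signal would take up 4% on average, a mean that can differ from the median.

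All 10 clones of set C had positive slopes, 8 of them at an unadjusted p under 0.05, and the median slope was 0.05 log2 units for each 10 points of normal alevins. All 8 clones of set E had negative slopes, 5 of them at an unadjusted p under 0.05, with a median of -0.05. In both sets every clone kept its sign in the HI and in the PM females taken alone. As the sets were made from correlated residuals, a sign shared by their clones follows in part from the grouping. The clones of a set are not separate observations of a slope. Egg quality took up a median of 17.5% of the squared residuals in set C and 14.7% in set E, and between 1.48 and 3.40% in the other sets. Most of the spread of sets C and E was thus not on a line with egg quality. In set C, PM 12, PM 9 and PM 11 gave 17.4, 14.0 and 13.4% of the squared residuals, and these females had 82.8, 43.9 and 82.5% normal alevins.

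The lowest p for a positive slope was that of 1RT45E01_A_C01, at 0.09 ± 0.02 (SE) per 10 points (limma, adjusted p = 0.667). It was at 1.45, 0.35, 1.05 and 0.88 in the N females, from -0.38 in HI 2 to 1.19 in HI 10 (median 0.92) and from -0.10 in PM 1 to 1.71 in PM 13 (median 1.21). Next came tcay0015.l.10 of set C, at 0.07 ± 0.02 (adjusted p = 0.667), with 1.43, 1.73, 1.30 and 1.78 in the N females, 1.39 to 2.38 (median 2.03) in the HI and 1.06 to 2.71 (median 1.85) in the PM females. For 1RT45E01_A_C01, PM 3 with 3.4% normal alevins was at 1.50 and PM 14 with 93.8% at 1.08. The overlap was narrower for tcay0015.l.10 in the PM group. There PM 10 to PM 14 lay at 1.88 to 2.71, and PM 1 to PM 9 at 1.06 to 1.87 except PM 7 at 2.16. Among HI females, HI 3 with 28.5% was at 2.16 in this clone and HI 9 with 91% at 1.73.

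Among negative slopes the lowest p values were those of tcac0003.f.23 and 1RT74K10_C_F05, both of set E. The slope of tcac0003.f.23 was -0.07 ± 0.03 (limma, adjusted p = 0.840), with 2.57, 1.98, 1.16 and 1.56 in the N females, 1.43 in HI 10 to 2.97 in HI 3 (median 2.31) and 1.23 in PM 14 to 2.93 in PM 1 (median 2.04). That of 1RT74K10_C_F05 was -0.06 ± 0.02 (adjusted p = 0.840). The N females, all of high egg quality, had SDs of 0.60 and 0.65 in these clones. The HI females had SDs of 0.48 and 0.50, and the PM females 0.59 and 0.44.

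**Figure D5:**
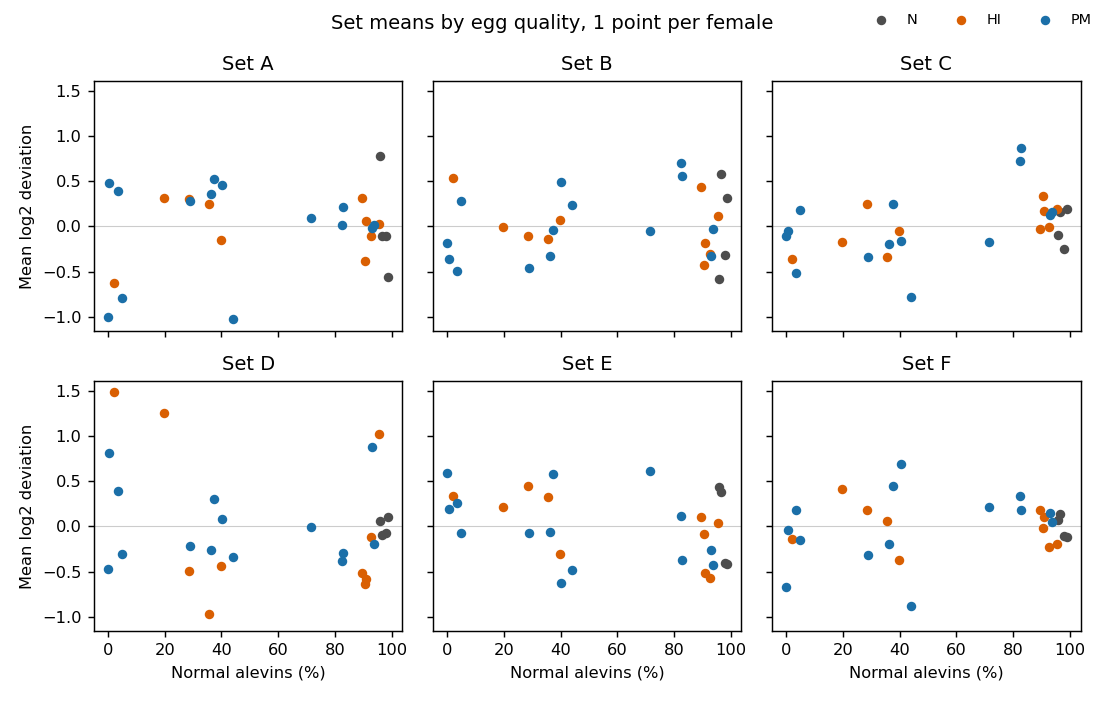
Mean deviation from the group mean of each set (vertical axis, log2) against the percentage of normal alevins (horizontal axis), 1 point per female coloured by group. In set A, PM 1 and PM 9 lie at -1.003 and -1.03 with 0 and 43.9% normal alevins. The next low females of set A, PM 4, HI 1 and N 4, had 5, 2 and 98.8%. PM 2 and PM 3, with 0.5 and 3.4%, lie at 0.48 and 0.39 in this set. In set D, HI 1 and HI 11 lie at 1.48 and 1.03 with 2 and 95.4%.

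Taken in 1 group at a time, egg quality called no member either. Among HI females no clone passed (limma, 0% of all clones), and 27 members and 5.61% of all clones had an unadjusted p under 0.05. In PM females no clone passed (0%), and 24 members and 13.8% of all clones had an unadjusted p under 0.05. The difference of the PM and HI slopes was called in no clone (0%), with 17 members and 13.7% of all clones at an unadjusted p under 0.05. Without HI 1 there were 9 members and 7.67% of all clones. Over the 24 omissions of an HI or PM array there were 9 to 22 members, and 7.67 to 16.6% of all clones. The slopes of 86 of the 150 clones had the same sign in both groups. In set B the slope was positive in 1 of 10 clones among HI females (median -0.04) and in 8 among PM females (median 0.06), and none of these differences of slope was called.

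Differences between groups, and with them between years, were not used directly to choose the clones. The limit of a mean log2 signal above 0 depends on group levels, however. Clone tcal0001.i.08 had means of -0.32 in the N, -0.05 in the PM and 0.92 in the HI group. It was thus kept only through its HI signal, as was tcad0009.a.22 (-0.20, -0.10 and 0.51). A few high or low females also move both the SD that chose a clone and the mean of their group. HI minus PM was called in 4 of the 150 clones (2.67%), 3 higher and 1 lower in the HI group, where limma called 2.45% of all clones (0.699% higher and 1.75% lower). The share of members called was near that of all clones. Clone tcav0001.n.01 of set B was at 0.93, 2.44, 1.13 and 2.24 in the N females, from 1.29 to 2.53 (median 1.83) in the HI females and from 0.65 to 1.76 (median 1.17) in the PM females. HI minus PM was 0.68 ± 0.16 (SE, log2, adjusted p = 0.0199), and the groups overlapped between 1.29 and 1.76.

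Clone 1RT74K10_C_F05 was at 0.72, 1.46, 0.18 and 0.02 in the N females, from 0.55 to 2.33 (median 1.59) in the HI females and from 0.12 to 1.63 (median 0.57) in the PM females, a difference of 0.76 ± 0.18 (limma, adjusted p = 0.0238). The third clone higher in the HI group was 1RT24F23_B_C12 (0.61 ± 0.16, adjusted p = 0.0398), named after its values were seen. The clone lower in the HI group was 1RT30B01_B_A01, at 1.90, 0.17, 1.73 and 1.37 in the N females, from -0.07 to 1.53 (median 1.26) in the HI females and from 1.15 to 2.04 (median 1.74) in the PM females (-0.59 ± 0.16, adjusted p = 0.0470). For tcav0002.f.22, the next in this direction, the N females were at 1.65, 0.57, 1.50 and 0.35, the HI females from -0.26 to 0.95 (median 0.19) and the PM females from 0.35 to 1.36 (median 0.56), and the difference of -0.43 ± 0.15 was not called (limma, adjusted p = 0.110). Of the 28 omissions of a single array, tcav0001.n.01 was called in 28, 1RT74K10_C_F05 in 27 (not without HI 1, adjusted p = 0.0570), 1RT24F23_B_C12 in 14 and 1RT30B01_B_A01 in 10.

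Members mostly had higher estimates in the HI group. HI minus PM was above 0 in 100 of the 150 clones, with a median of 0.12 where the median of all clones was -0.01, and at an unadjusted p under 0.05 there were 37 members, 33 higher and 4 lower, against 20.3% of all clones, 8.46% higher and 11.9% lower. Sets B, D and E held 16 of the 37, and every clone of sets B to F had an estimate above 0. Clones of a set vary together, so these counts rest on few independent observations. Clones kept only through their HI signal add to the excess by the choice. In set D the median difference was 0.60, and no clone of the set was called. The mean of this set was highest in HI 1, HI 2 and HI 11. For 1RT152B03_B_A02, however, HI 11 was at 1.21, as was the mean of the PM group. Estimates above 0 were 90 of 150 with the values as deposited and 106 with arrays scaled to a common spread. With the values as deposited, 28 members had an unadjusted p under 0.05, 20 higher and 8 lower, against 25.0% of all clones, 9.85% higher and 15.2% lower. With the scaled arrays there were 51 members, 47 higher and 4 lower, against 20.5% of all clones, 9.78% higher and 10.7% lower. The interquartile range of log2 signal on the array differed between groups as well, at 1.44 ± 0.07 (SD, n = 10) in the HI group and 1.59 ± 0.11 (n = 14) in the PM group. With it as a covariate, 0 members and 0% of all clones were called (limma, 16 members and 6.76% of all clones at an unadjusted p under 0.05). When single arrays were left out, 1 member was called without HI 1, 2 when HI 2, HI 5, HI 7, HI 11, PM 2, PM 3, PM 5, PM 6 or PM 9 was the female left out, 6 without HI 4, and 3 to 5 for each of the remaining females. The share of all clones called moved too, between 1.04% without HI 1 and 3.45% without PM 4.

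Comparisons with the N group rest on 4 females and share them. HI minus N was called in none of the 150 clones (limma, 0% of all clones), with 17 members higher and 2 lower at an unadjusted p under 0.05, against 3.19 and 3.9% of all clones (7.09% in either direction). PM minus N was called in none (0%), with 8 members and 6.89% of all clones at an unadjusted p under 0.05. Single N females moved these counts. Without N 1, 31 members and 5.81% of all clones had an unadjusted p under 0.05 for HI minus N, and 19 members and 11.3% for PM minus N. Over the 28 omissions, the members ran from 13 to 31 for HI minus N (5.81 to 8.84% of all clones). For PM minus N they ran from 5 to 19 (3.98 to 11.3% of all clones). For HI minus N, 112 estimates were above 0 (median 0.20), and for PM minus N, 93 (median 0.08). HI minus N was above 0 in all 8 clones of set D (median 1.10). These clones vary together and are not separate observations. Some of them, such as tcal0001.i.08, passed the limit on mean signal only through the HI group, so the excess follows in part from the choice. Group took up a median of 9.00% of the total squares of the members and 9.64% of those of the 3663 clones, and year took up 4.36 and 4.99%. Labels unrelated to the signal would take up 7.41% for group and 3.70% for year on average. These are means, which can differ from the medians, so the 2 kinds of value are not directly comparable. Group took up at most 39.9% in any of the 150 clones, so that over 50% of the variation of each lay within group and year. The clones were chosen for such variation. With 1 array per sample, it holds differences of both females and arrays.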

How the data were processed

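The authors read the arrays with a phosphorimager, discarded spots where the vector oligonucleotide gave little signal, used that oligonucleotide to correct for the DNA present in a spot and scaled every array to its median. The deposited values are these array intensities on a linear scale. Version numbers of the authors' image software, and how duplicate spots were combined, are not given in the sources used here. For this report, 193 rows that name no clone were left out, a 0 (6.59% of the values of clones) was taken as missing, and the log2 values of 7865 clones were quantile normalized with no pseudocount. The number of females limits the precision.

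Slopes and group means were fitted over all 7865 clones with limma 3.58.1 in R 4.3.3 (moderated statistics, two-sided, Benjamini-Hochberg adjusted p under 0.05), with groups from the sample labels. Scripts were tested on simulated data. Figures were drawn with matplotlib 3.10.9. The clones, sets, gene lists and tests were chosen with earlier results of these data known. Named clones are the 8 of largest SD, the 2 of lowest p for each sign of slope and of HI minus PM, the clone nearest each set mean and the 2 clones at the limit. The gene lists and tissue markers had no named member. Some clones of the study's lists are not reported here.

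The numbers of the samples rank females by egg quality and do not pair them: of 18 pairs of a common number, 4 had residuals correlated over 0.1 (r = -0.34 to 0.22). Alternatives were other normalizations, filters, measures of spread, variance models, weights and covariates, another measure of egg quality, a block by replicate number, and the omission of single arrays.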

Additional observations from a re-analysis of the deposited data

Results flagged for a closer look

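In groups of 4 to 10 females, 1 of the 44 groups of values looked at for the named clones had a female far from the rest of its group. This was N 4 for tcay0028.p.24, with a log2 signal of 5.93, while the nearest other N female was at 0.98. The gap was 0.90 of the range of the group. Chance alone marks about 1 in 20 groups, or 2.2 of 44, where groups are not chosen by their values. Many named clones, tcay0028.p.24 among them, were chosen by their spread, so that rate does not apply to them. The PM group, of more than 10 females, was not looked at in this way.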

How the results depend on the processing

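Of the 150 clones, 85 were also kept when the median absolute deviation replaced the SD, 75 with no minimum mean signal and 75 with a mean log2 above 1, the last 2 of which change the clones that can be kept. Leaving out 1 array at a time kept 135 to 146. The 4 members called for HI minus PM (2.45% of all clones) became 11 with arrays scaled to the same median absolute deviation (3.32% of all clones), 11 with array weights (7.5%), 1 with the replicate number as a block (0.585%), 0 with the interquartile range as a covariate (0%) and 2 with the variance of each clone alone (2.25%), and 1 to 6 when 1 array was left out. The slope on normal alevins, the difference of the PM and HI slopes, HI minus N and PM minus N called 0 members under every alternative run and 0 to 0 when 1 array was left out. With the replicate number as a block, the slope of tcac0003.f.23 turned from -0.07 to 0.21 (limma, adjusted p = 0.576), and the numbers follow egg quality by construction. With the interquartile range as a covariate, the lowest adjusted p of a member for the slope was 0.0508 (limma), against 0.667 without it. For the other differences the cause was not tested. The covariate of interquartile range, the variance of each clone alone and the choice of clones from HI and PM arrays alone were added after the data were seen. With 4 N females, a single N female moves the residuals of the other 3.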
